A study of Mus musculus with 9 samples.

Results

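Homozygous and heterozygous blood of mouse embryos at E12.5 were compared, to read how 2 copies of the mutant Cbfb allele ΔC95 differ from 1. The second copy replaces the last wild-type copy of Cbfb, so its gain and the loss of the wild-type copy cannot be told apart. The comparison holds the 3 arrays of CbfbΔC95/ΔC95 blood and the 3 arrays of Cbfb+/ΔC95 blood, chosen by the genotype in their titles, which are 6 of the 9 arrays of the series. The 3 arrays of wild-type (Cbfb+/+) blood, also at E12.5, helped to estimate the spread, and their levels are given as a reference. All embryos were on a mixed C57BL6/129SvEv background and none was treated. Each RNA sample was made from the pooled, frozen blood of 8 to 10 embryos of 1 genotype. Nothing in the labels tells if arrays of 1 genotype stem from different pools, and the p-values may therefore cover technical spread alone. ΔC95 is not described further in the labels, and the series title places it at the C-terminus of CBFβ-SMMHC, the leukaemia fusion protein in which CBFβ is fused to the smooth muscle myosin encoded by Myh11.

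CBFβ binds no DNA itself. It steadies the RUNX proteins on DNA, and the complex, core binding factor, is needed for the first definitive blood stem and progenitor cells and for megakaryocytes. The fusion protein binds RUNX1 and disturbs this work. At mid-gestation most blood cells are nucleated primitive red cells from the yolk sac, which carry embryonic globins, with few macrophages, megakaryocytes and progenitors among them.

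The blood label held in both groups. The embryonic globins Hbb-bh1, Hba-x and Hbb-y had mean log2 values of 14.43, 14.35 and 14.21 in homozygous and 14.38, 14.31 and 14.18 in heterozygous blood, near the top of the table, whose highest value was 14.56. All values are on a log2 scale, where a difference of 1 is a factor of 2, and each gene was read by its brightest probe set. Differences are homozygous minus heterozygous, and a gene is called where its Benjamini-Hochberg adjusted p from limma is under 0.05. Across probe sets, arrays correlated at r = 0.996 to 0.998 within a genotype and at 0.991 to 0.992 between these genotypes.

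Of 18193 genes, 2867 were called (15.8%). Falls were more frequent and larger than rises: 978 genes rose (5.38%) and 1889 fell (10.4%), but only 3 rose by at least 2-fold, against 131 that fell by as much. Of the falls, 25 reached 2 on the log2 scale and 7 reached 3. In 5660 genes (31.1%) no homozygous array overlapped a heterozygous one, 2860 of them higher and 2800 lower. The median difference of all genes was 0.03, and the median size of a called difference was 0.38. Over 45037 probe sets, 5459 were called (12.1%), with 1880 higher (4.17%) and 3579 lower (7.95%), so that 34.4% of the calls were rises. That share was 20.1% with arrays centred on 8 reference genes, of which 2 were themselves called higher and 2 lower. Poly-A spike-in controls were higher by 0.70 on homozygous arrays, and the part of RNA amount in the differences was not tested. Probe sets of a gene often differed. Of the 146 called genes that the naming rule picked, 77 have more than 1 probe set; all others were called in the same direction in 28, some in 13 and none in 36, many of the uncalled ones being dim. Counts of rises leaned on the heterozygous arrays: without heterozygous replicate 1, 539 genes and 1040 probe sets rose, and without heterozygous replicate 2, 568 and 1084.

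**Figure D1:**
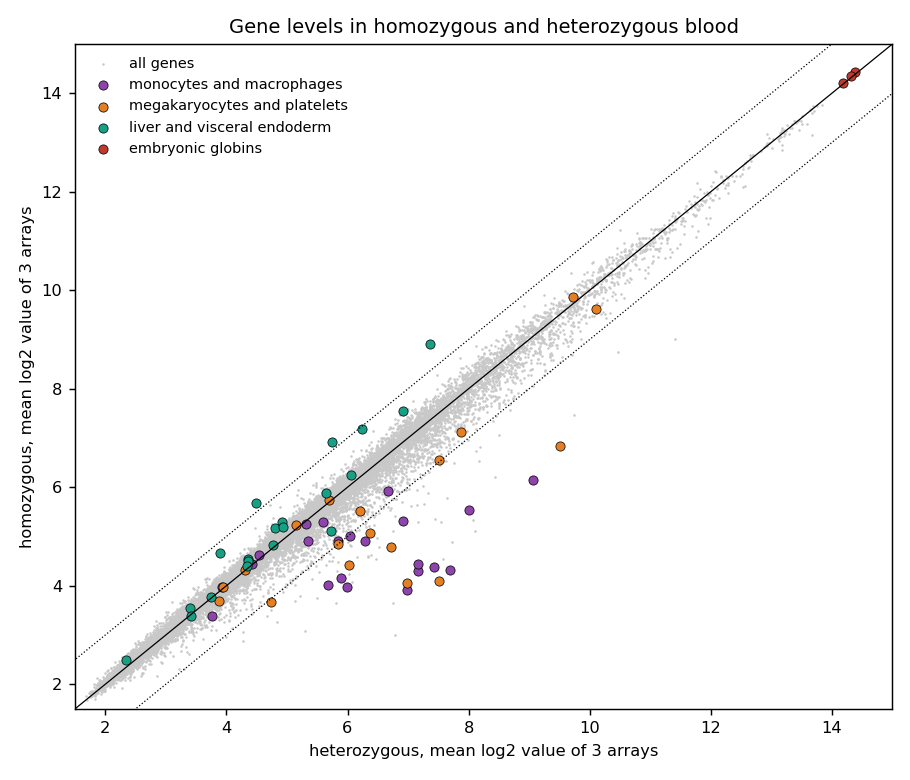
Mean log2 value of each gene in heterozygous (horizontal) and homozygous blood (vertical), 3 arrays each; the solid line marks equal levels and the dotted lines a 2-fold difference. Monocyte and macrophage genes and megakaryocyte genes lie below the lower dotted line in number, Afp, Apoa1 and Rbp4 lie above the upper one, and the embryonic globins lie on the solid line.

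Promoters of 5 of the genes that moved most are shown first, because genes of macrophages and megakaryocytes fell together and core binding factor and the macrophage factor Spi1 (PU.1) bind known short motifs. The sequences are the 250 bases before the gene start in RefSeq's annotation of GRCm38.p6, and capitals mark GAGGAA on either strand (TTCCTC as its reverse complement), letters typical of sites of the ETS family, to which Spi1 belongs. Mrc1, the mannose receptor of macrophages (chr2:14229164-14229413, + strand), has 3 matches:
Mrc1: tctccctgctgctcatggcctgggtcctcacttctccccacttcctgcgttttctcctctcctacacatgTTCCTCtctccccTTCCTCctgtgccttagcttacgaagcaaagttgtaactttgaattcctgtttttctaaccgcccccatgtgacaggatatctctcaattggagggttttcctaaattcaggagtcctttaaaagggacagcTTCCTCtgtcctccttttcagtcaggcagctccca
Ctsc, a lysosomal protease (chr7:88277835-88278084, + strand), has 2:
Ctsc: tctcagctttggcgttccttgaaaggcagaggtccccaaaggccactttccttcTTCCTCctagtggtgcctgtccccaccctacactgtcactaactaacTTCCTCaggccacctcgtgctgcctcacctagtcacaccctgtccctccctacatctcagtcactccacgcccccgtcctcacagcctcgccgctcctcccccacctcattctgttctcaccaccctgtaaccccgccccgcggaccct
Fcgr3, an Fc receptor for antibodies (chr1:171059404-171059653, - strand), has 1, ending at the base before the gene start:
Fcgr3: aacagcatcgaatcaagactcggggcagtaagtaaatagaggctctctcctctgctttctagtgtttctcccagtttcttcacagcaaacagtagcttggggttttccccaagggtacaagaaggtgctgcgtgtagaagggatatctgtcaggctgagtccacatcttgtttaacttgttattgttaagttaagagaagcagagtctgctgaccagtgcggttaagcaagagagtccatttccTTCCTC
Ppbp, the platelet basic protein and the largest megakaryocyte fall (chr5:90768268-90768517, + strand), has none:
Ppbp: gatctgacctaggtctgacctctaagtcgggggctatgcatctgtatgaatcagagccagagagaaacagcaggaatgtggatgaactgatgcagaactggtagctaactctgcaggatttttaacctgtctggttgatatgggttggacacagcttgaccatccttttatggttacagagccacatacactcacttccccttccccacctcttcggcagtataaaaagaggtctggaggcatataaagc
Afp, the gene of alpha-fetoprotein and the largest rise (chr5:90490464-90490713, + strand), has none:
Afp: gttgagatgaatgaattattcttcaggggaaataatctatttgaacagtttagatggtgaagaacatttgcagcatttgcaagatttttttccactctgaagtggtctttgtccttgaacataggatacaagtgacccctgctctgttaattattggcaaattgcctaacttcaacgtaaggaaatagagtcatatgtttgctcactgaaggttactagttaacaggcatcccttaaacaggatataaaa
The macrophage genes printed were picked because they hold the motif. Of the other genes among the 12 largest falls whose promoters were read, Ms4a6b, Gp1bb, Ifitm2 and 1 of 2 promoters of F13a1 held none. The second promoter of F13a1 held 1. Among the 12 largest rises, of which Csf2rb and Atp1b2 were not read, Snhg1 held 2 and 1 of 2 promoters of Atf5 held 1. No promoter printed holds TGTGGT or its reverse complement ACCACA, the letters most typical of a RUNX site. Neither do the other promoters read among those falls. The promoters of Lyve1, C1qa, Tyrobp and Csf1r were not read, that of Csf1r because its chromosome was set aside, so nothing is said of these genes. Of the rises, Pfkp, Rbp4 and Apoa2 hold it, the last 2 genes in 1 of 2 promoters. Over the promoters of genes tested, 22.8% of 18109 held GAGGAA. It was in 36.1% of 133 promoters of the genes that fell by at least 2-fold, in 10 of 18 promoters of the macrophage list and in 8 of 16 of the megakaryocyte list. Among all called genes its share was 21.8% for falls and 22.5% for rises. TGTGGT was in 11.7% of the promoters tested and in 17 of 133 (12.8%) of those of genes that fell by at least 2-fold. These shares are descriptions without a test, the motifs do not overlap in the promoters printed, and letters in a window are not a bound site.

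The targeted gene fell. Cbfb had log2 values of 4.93, 5.13 and 5.25 on the homozygous arrays, 5.73, 5.80 and 5.79 on the heterozygous and 6.00, 6.04 and 5.98 on the wild-type arrays. Every homozygous array lay below every heterozygous one, and the difference was -0.67 ± 0.08 (SE, n = 3 each, adjusted p = 9.57e-05). A single probe set reads Cbfb, and its place relative to the altered stretch is unknown here, so its fall is no check of the genotypes. Runx1, the partner that binds DNA in blood, was at 6.54 ± 0.26 and 6.44 ± 0.16 (SD, n = 3 each), a difference of 0.10 that did not pass (adjusted p = 0.656). Myh11, the fusion partner, differed by 0.16 (adjusted p = 0.157). Runx1t1, a corepressor that RUNX1 meets in another leukaemia fusion, fell by 0.82 on the log2 scale. Its other probe sets were divided, at -0.83 and -0.60 with a call and between -0.03 and 0.18 without. Of the 7 genes of core binding factor and its fusion partners, 2 fell and none rose, with a median of 0.10 (1 rose without homozygous replicate 1).

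Among genes listed as reported RUNX1 targets, 6 of 18 fell and 1 rose, with a median of -0.00. The falls were Csf1r, Pf4, Mpo, Myb, Itga2b and Cebpa, genes of macrophages, platelets, granulocytes and progenitors. The rise was Cdkn1a, an inhibitor of the cell cycle, at 0.51.

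Macrophage genes gave many of the largest falls. Of 22 measured genes of monocytes and macrophages, 17 fell and none rose, with a median of -1.49 against 0.03 for all genes. Their summed level was 9.31 to 9.34 on homozygous arrays, 11.20 to 11.24 on heterozygous and 11.55 to 11.58 on wild-type arrays, so the heterozygous arrays lay near the wild-type ones. In whole blood, fewer macrophages and less of each RNA per macrophage cannot be told apart. The 5 members that were not called were mostly dim, at 3.93 to 5.60 in heterozygous blood. They include Spi1, the transcription factor of the macrophage lineage, at 5.29 against 5.60 (difference -0.31, adjusted p = 0.0921), and Irf8, Itgam, Ccr2 and Cx3cr1, at -0.08 to 0.08.

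Surface receptors were among the largest falls. Mrc1, which takes up mannose-bearing glycoproteins, had values of 4.30, 4.36 and 4.32 on homozygous and 7.69, 7.72 and 7.65 on heterozygous arrays. Both groups were tight and far apart, a fall of 10.3-fold (-3.36 ± 0.06, SE, adjusted p = 3.35e-11). Csf1r, the receptor for the growth factor that macrophages need to live, had values of 6.08, 6.28 and 6.06 on homozygous arrays, 9.06 on each heterozygous array and 9.59 to 9.64 on wild-type arrays. It fell by 7.56-fold (adjusted p = 1.15e-10), and both other probe sets of the gene were called lower too, the one with the smaller change at -0.49. The antibody receptor Fcgr3 was at 4.48, 4.37 and 4.29 on homozygous and 7.42, 7.45 and 7.41 on heterozygous arrays, and fell by 8.26-fold (adjusted p = 8.18e-11). The groups of these 3 receptors were separated by more than 2 on the log2 scale with no overlap.

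Partners that carry the signal of such receptors fell with them. Tyrobp, the adaptor DAP12, was at 4.18, 4.15 and 4.57 on homozygous and 7.15, 7.25 and 7.11 on heterozygous arrays, a fall of 7.30-fold (adjusted p = 4.24e-09). The common Fc receptor chain Fcer1g was at -1.61 and the high-affinity receptor Fcgr1 at -1.37, and these were, with Fcgr3 and Tyrobp, the 4 of 9 Fc receptors and adaptors that fell. The other probe set of Fcgr1 was at -0.01 without a call (adjusted p = 0.953). None rose, and the median of the list was -0.17. Ms4a6b, a membrane protein of macrophages and other leukocytes, was at 3.55, 3.64 and 3.75 against 6.84, 6.77 and 6.66, a fall of 8.64-fold (adjusted p = 1.10e-10).

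All 3 chains of complement C1q, which macrophages secrete, fell. C1qa was at 3.43, 4.36 and 3.95 on homozygous arrays, a wide spread, against 6.95, 7.04 and 6.97 on heterozygous arrays. No array overlapped, and the fall was 8.42-fold (-3.07 ± 0.17, SE, adjusted p = 2.80e-07). C1qc fell by 2.73 on the log2 scale, with homozygous values of 3.73, 4.78 and 4.80. C1qb was at -0.76 by its brightest probe set and at -3.52 and -2.77 by the others, so its size depends on the probe set.

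Lyve1, a hyaluronan receptor of lymphatic endothelium, embryonic endothelium and some tissue macrophages, was the largest fall of all. Its values were 2.92, 3.08 and 3.00 on homozygous, 6.87, 6.84 and 6.66 on heterozygous and 3.86, 3.83 and 3.73 on wild-type arrays. The heterozygous arrays were thus high against both other genotypes, and the fall was 13.8-fold (-3.79 ± 0.07, SE, adjusted p = 5.31e-11). A second, uncalled probe set of Lyve1 gave -0.31 (adjusted p = 0.0760). Of 12 scavenger and hyaluronan receptors, 4 fell and none rose: Lyve1, Mrc1, the scavenger receptor Stab1 at -0.87 and the lectin Clec4n at -0.74. Their list median was -0.11.

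Genes of digestion and lipid handling fell too. Of 10 lysosomal proteases, 7 fell and none rose (median -0.52). Ctsc, which activates the serine proteases of leukocyte granules, was at 4.62, 4.44 and 4.54 on homozygous and 7.65, 7.59 and 7.51 on heterozygous arrays, with no overlap and a fall of 8.29-fold (adjusted p = 9.11e-11). Its 2 other probe sets, both dim, gave -0.11 without a call. Ctss, which cuts the invariant chain in antigen presentation, was at -1.75, Ctsz at -0.88 and Lgmn at -0.76. Lysozyme also fell, with Lyz1 at -2.02 (a dim, uncalled probe set gave 0.08) and Lyz2 at -1.38.

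Of 11 genes of lipid handling, 6 fell and none rose (median -0.36). Selenop, a secreted selenium carrier, had values of 7.50, 7.53 and 7.37 on homozygous and 9.75, 9.74 and 9.71 on heterozygous arrays, and 10.64 to 10.70 on wild-type arrays. Its fall of 4.82-fold (adjusted p = 5.69e-10) left the heterozygous arrays between the others. Abca1, which exports cholesterol, was at -2.00, and Apoe, which carries it, at -1.57. Both dimmer probe sets of Abca1, at 0.04 and 0.10, were not called, and without _s_at, _x_at and _a_at probe sets 3 genes of the list fell. These genes are not macrophage genes alone, and liver and yolk sac make Apoe too.

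F13a1, a clotting factor subunit of macrophages and platelets, was at 4.73, 5.54 and 5.03 on homozygous and 8.12, 8.13 and 8.05 on heterozygous arrays. It fell by 7.99-fold (adjusted p = 1.40e-07), with the homozygous arrays spread over a wider range. Several other macrophage families moved less, and their counts stand beside the 10.4% of all genes that fell. Of 14 chemokines and their receptors, 2 fell, Ccl9 at -1.01 and Ccl3 at -0.60, and Ccl3 lost its call in most settings (adjusted p = 0.0495). With homozygous replicate 1 or 3, heterozygous replicate 1 or 2 or any wild-type array left out, 1 of these was called. Of 12 Toll-like receptors and partners, Cd14, the receptor for bacterial lipopolysaccharide, was the 1 that fell, at -1.02 (2 without homozygous replicate 2). Of 10 leukocyte integrins, 2 fell: Itga6 at -0.89 (another probe set gave -0.24 without a call) and Itgb2 at -0.42 (1 without homozygous replicate 1 or heterozygous replicate 1 or 3).

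**Figure D2:**
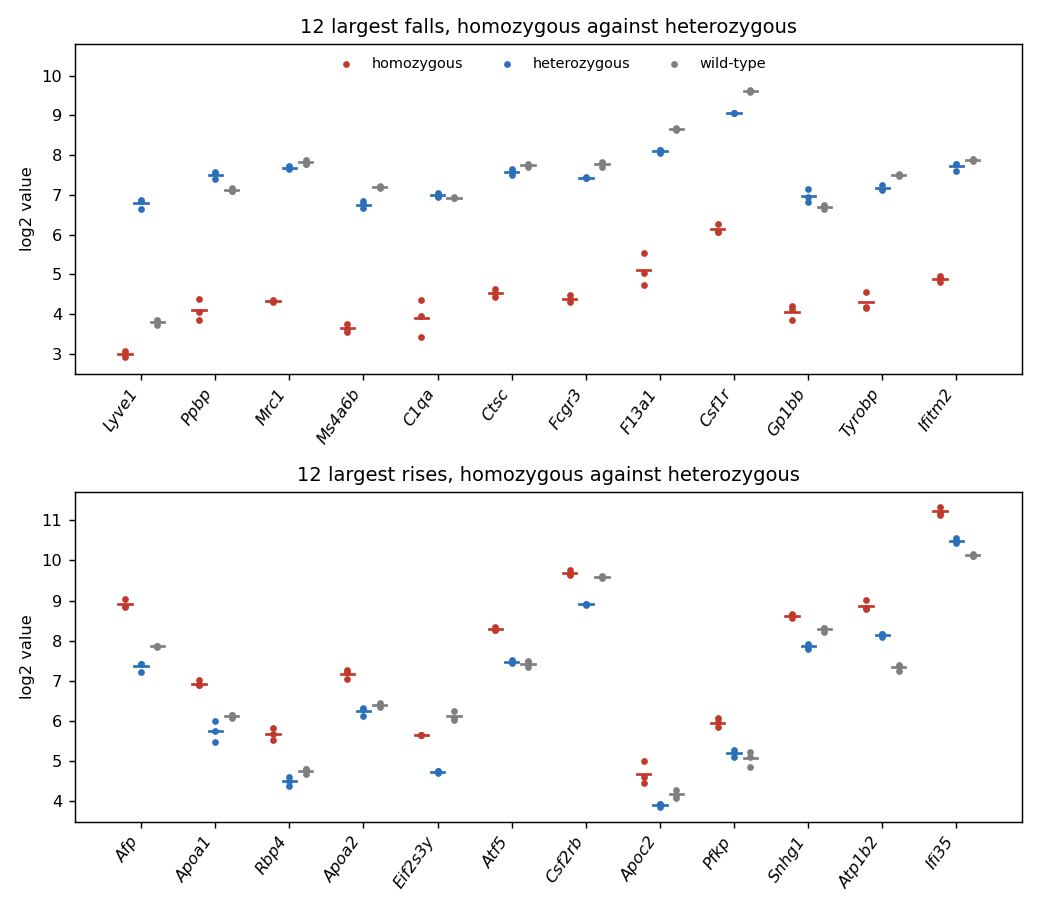
Log2 value on each array (points) and mean (bars) of the 12 genes with the largest falls (upper panel) and the 12 with the largest rises (lower panel), for homozygous, heterozygous and wild-type blood, 3 arrays each. In the upper panel the homozygous points lie below both other genotypes for every gene, and the wild-type points of Lyve1 lie near the homozygous ones, at 3.81 on average. In the lower panel the homozygous points are the highest except for Eif2s3y.

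Megakaryocyte and platelet genes were the second large group. Of 18 measured, 12 fell and none rose, with a median of -0.85. Their summed level was 11.23 to 11.26 on homozygous, 11.93 to 11.96 on heterozygous and 11.76 to 11.81 on wild-type arrays, so the heterozygous arrays were the highest.

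Secreted chemokines and adhesion receptors fell furthest. Ppbp, the platelet basic protein stored in granules, was at 3.84, 4.06 and 4.39 on homozygous and 7.58, 7.54 and 7.40 on heterozygous arrays. The groups were far apart, with a fall of 10.6-fold (adjusted p = 4.24e-09). Pf4, the granule chemokine platelet factor 4, was at 7.10, 6.58 and 6.85 against 9.51, 9.48 and 9.53, and fell by 6.33-fold (adjusted p = 1.69e-08). Gp1bb, a chain of the receptor that binds von Willebrand factor, was at 4.13, 4.20 and 3.85 against 7.14, 6.96 and 6.83, and fell by 7.55-fold (adjusted p = 4.24e-09). None of these 3 genes had overlapping arrays. The other probe set of Gp1bb, at 5.57 in homozygous and 5.77 in heterozygous blood, gave -0.20 and was not called (adjusted p = 0.111), so this fall depends on the probe set.

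The other chains of that receptor, Gp5 and Gp9, fell by 1.29 and 0.96 on the log2 scale, and the fibrinogen receptor chains Itgb3 and Itga2b by 1.00 and 0.75. A second probe set of Itgb3 gave -0.06 without a call. Plek, a platelet substrate of protein kinase C, was at -1.93, and its other probe sets at -2.52 and -0.43. Vwf, made by megakaryocytes and endothelium, was at -1.07. Tubb1, the tubulin of the platelet's marginal band, changed least of those called, at -0.47.

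Few markers of other white cells moved. Of 15 neutrophil and granulocyte genes, 1 fell and none rose (median 0.14; 1 rose without heterozygous replicate 1 or wild-type replicate 2). The fall was in Mpo, the myeloperoxidase of the first granulocyte precursors, with values of 5.90, 5.49 and 5.47 on homozygous, 7.05 on each heterozygous and 7.79 to 7.86 on wild-type arrays. Its arrays did not overlap, and the difference was -1.43 ± 0.10 (SE, adjusted p = 1.86e-06). None of 15 lymphoid genes was called by limma, with a median of 0.07. Of 11 mast cell and basophil genes, only Cpa3, a mast cell protease, was called, at -0.57 (adjusted p = 0.0322), and not with homozygous replicate 1 or 3, any heterozygous array or wild-type replicate 2 left out.

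Stem and progenitor genes were at a median of 0.02, with 6 of 23 lower and none higher (3 lower without homozygous replicate 1 or heterozygous replicate 1, 1 lower without variance moderation, and 1 higher without homozygous replicate 2). Myb, which definitive progenitors need, was at 3.00, 3.67 and 3.57 on homozygous, 4.33, 4.20 and 4.02 on heterozygous and 5.18 to 5.70 on wild-type arrays. The homozygous arrays were the lowest and the difference was -0.77 ± 0.17 (SE, adjusted p = 0.0101). The call was lost without variance moderation (adjusted p = 0.105), and its 2 dimmer probe sets, at -0.07 and -0.34, were not called. Mecom, Procr and Slamf1, genes of blood stem cells, were at -0.37, -0.35 and -0.33 (the other probe sets of Mecom and Slamf1 lay between -0.08 and 0.04 without a call), and Cd34 and Cebpa at -0.32 and -0.30. Kit and Gata2 did not pass, at -0.20 and -0.13.

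Cytokine receptors of myeloid cells did not move as a block. Csf1r fell, and 2 of the 10 rose. Csf2rb, the signalling chain shared by the receptors for GM-CSF, IL-3 and IL-5, was at 9.76, 9.63 and 9.67 on homozygous, 8.92, 8.89 and 8.91 on heterozygous and 9.57 to 9.61 on wild-type arrays. Here the heterozygous arrays were the low ones, and the rise of 0.78 ± 0.06 (SE, adjusted p = 2.76e-06) brought homozygous blood to the level of wild type. Csf2rb2, an IL-3-specific form of this chain in mice, rose by 0.72. The 2 genes are near-identical copies, so their probe sets may share signal.

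Embryonic globin levels, the hallmark of this blood, did not pass the test. None of the 3 embryonic globins was called by limma (differences 0.04 to 0.05, adjusted p = 0.619 to 0.706); saturation was not checked. Of 3 adult globins, Hba-a2 fell by 0.36, in a family of near-identical copies. Of 18 erythroid transcription factors and genes of erythropoietin signalling, 3 fell and 1 rose, with a median of 0.02 (2 rose without homozygous replicate 2).

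Tal1, a factor that builds the erythroid and megakaryocyte programs, was at 10.74, 10.66 and 10.63 on homozygous and 11.35, 11.36 and 11.29 on heterozygous arrays. It fell by 1.58-fold with no overlap (adjusted p = 1.00e-05). Klf3, a repressor that acts with the erythroid factor Klf1, was at 7.49, 7.39 and 7.42 against 8.47, 8.47 and 8.41, and fell by 1.01 on the log2 scale. Its other 6 probe sets lay between -0.29 and 0.20 with 1 called, so this fall depends on the probe set. Gata1, Klf1 and Epor, the master factors and the erythropoietin receptor, were not called, at 0.17, -0.02 and 0.13. Cish, an erythropoietin-induced inhibitor of cytokine signalling, rose by 0.47.

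Of 15 genes of red cell membrane and maturation, 5 fell and 2 rose, but 3 fell without heterozygous replicate 1 and 1 fell without heterozygous replicate 2, and 1 rose when any array except wild-type replicate 1 was left out. Trim10, an erythroid ubiquitin ligase, fell by 0.58 and Sptb, the beta spectrin of the membrane skeleton, rose by 0.39 (another probe set gave 0.09 without a call). Of 17 genes of heme synthesis and iron handling, 4 fell. The 2 that rose, Slc11a2 and Ppox, lost their calls when any heterozygous array or homozygous replicate 1 was left out, and 1 kept its call when any other array was. Flvcr1, the exporter of heme, was at 6.09, 6.08 and 6.15 on homozygous, 7.06, 7.01 and 6.89 on heterozygous and 7.62 to 7.73 on wild-type arrays. It fell by 0.88 on the log2 scale (adjusted p = 2.37e-06), and a dimmer probe set gave 0.16 without a call.

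Most of the measured genes that hold back the cell cycle fell. Of 14 inhibitors and genes of cell cycle exit, 9 fell and 1 rose, with a median of -0.46. The falls were in all 3 pocket proteins, Rbl1 at -0.85, Rb1 at -0.76 and Rbl2 at -0.53, which hold back the E2F factors, in the CDK inhibitors Cdkn1c at -0.88, Cdkn1b at -0.70 and Cdkn2c at -0.39, and in Ccng2 at -0.64 and Btg2 at -0.34. The dimmer probe sets of Rb1 and Rbl1 lay between -0.09 and 0.02 without a call, and the second ones of Rbl2, Cdkn1b and Btg2 were at -0.11, -0.01 and 0.03, also uncalled. Gadd45a, a stress gene of growth arrest, was at 8.06, 7.89 and 7.86 on homozygous, 8.70, 8.68 and 8.69 on heterozygous and 9.59 to 9.64 on wild-type arrays. It fell by 0.76 on the log2 scale, with the heterozygous arrays between the others. The 1 rise was Cdkn1a, whose second probe set gave 0.27 without a call (adjusted p = 0.0590).

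Of 25 genes of DNA replication, 5 fell and 4 rose (median 0.07), and the rises numbered 2 without homozygous replicate 1 or any wild-type array, 1 without homozygous replicate 3 or heterozygous replicate 2 and 0 without heterozygous replicate 1. The replicative helicase gene Mcm4 was at 6.75, 6.58 and 6.59 on homozygous, 7.25, 7.40 and 7.16 on heterozygous and 6.40 to 6.47 on wild-type arrays, so the heterozygous arrays were the highest. It fell by 0.62 (adjusted p = 0.000121), and Mcm6, Rrm2, Pcna and Cdt1, also highest in heterozygous blood, by 0.33, 0.33, 0.25 and 0.22. The other probe sets of Mcm6 and Rrm2 were at -0.20 to -0.10, without a call, and those of Cdt1 at -0.10 and 0.04. Of 22 genes of mitosis, 2 fell and none rose (median -0.05), where 10.4% of all genes fell. The falls were Kif23 at -0.40 and Prc1 at -0.33. Of 15 genes of the Bcl2 family and p53 targets, Mdm2, Mcl1 and Bcl2l1 fell, at -0.41 to -0.21, each with 2 or more other probe sets of which at least 1 was not called (1 fell without heterozygous replicate 2).

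Smaller rises were spread over genes of energy supply and protein synthesis. Of 18 genes of glycolysis and the response to low oxygen, 9 rose and 1 fell, with a median of 0.20. Tpi1, triose phosphate isomerase, was at 10.39, 10.33 and 10.31 on homozygous, 9.67, 9.67 and 9.71 on heterozygous and 8.96 to 9.02 on wild-type arrays. All 3 of its probe sets rose, by 0.66, 0.82 and 0.85. Pfkp, a phosphofructokinase, rose by 0.77, and Aldoa, Ldha, Pfkl, Pgam1 and Pgk1, other steps of the pathway, by 0.39, 0.38, 0.35, 0.35 and 0.21. Both other probe sets of Pfkp, at 0.02 and 0.12, were not called. Pgk1 lost its call when heterozygous replicate 2 or 3 or homozygous replicate 2 or 3 was left out, with the replicate block and in 2 more settings (adjusted p = 0.0507 to 0.0932). The fall was Pkm, at -0.35. Without probe sets whose names end in _s_at, _x_at or _a_at, 4 glycolysis genes rose.

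Atf4 is the factor that answers amino acid shortage and related stress. Of 16 genes of this response, Atf4 itself among them, 6 rose and none fell (median 0.16). Atf5, a factor of the same response, was at 8.33, 8.27 and 8.26 on homozygous, 7.53, 7.46 and 7.44 on heterozygous and 7.34 to 7.48 on wild-type arrays. The rise was 0.81 ± 0.06 (SE, adjusted p = 3.09e-06), with the heterozygous arrays at the wild-type level. Ddit3 (CHOP) rose by 0.54 (a dimmer probe set gave 0.04 without a call), and Shmt2 and Mthfd2, enzymes of mitochondrial folate metabolism, by 0.51 and 0.40.

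Of 19 aminoacyl-tRNA synthetases, which charge tRNAs for translation, 8 rose and 1 fell (median 0.21). Sars, Mars1, Yars and Vars rose by 0.54, 0.49, 0.45 and 0.41, and Eprs was at -0.26, with its 3 other probe sets uncalled at -0.10 to 0.10. In ribosome biogenesis 6 of 21 rose and 2 fell (median 0.16). Pes1 and Fbl, of ribosomal RNA maturation, rose by 0.53 (a dim probe set of Pes1 gave -0.02 without a call) and 0.41, while Ncl and Npm1, the abundant nucleolar proteins, fell by 0.47 and 0.35. Ddx21 rose by 0.43, but its probe set without a suffix gave -0.27.

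Mitochondrial ribosomal proteins rose in 7 of 20 (median 0.15; 4 without _s_at, _x_at and _a_at probe sets), with Mrps7 at 0.44 and Mrps18a at 0.40, and cytosolic ones in 3 of 14 (median 0.06; 1 without heterozygous replicate 1 or 2). Neither list had a fall. Of 25 proteasome subunits, 8 rose and 1 fell (median 0.11), with the ATPases Psmc4 and Psmc5 at 0.48 and 0.43, and Psmd14 at -0.35 (3 fell without homozygous replicate 1). Of 22 genes of oxidative phosphorylation, 4 rose and 1 fell (median 0.02). In the cholesterol pathway 2 of 14 rose and 2 fell, and leaving out any 1 array lowered at least 1 of these counts to 1 or 0. Among the largest rises outside the lists were Snhg1, the host RNA of several small nucleolar RNAs, at 8.64, 8.67 and 8.57 against 7.92, 7.88 and 7.79 (rise of 0.76), Atp1b2, a subunit of the sodium pump, at 0.74, and Ifi35 at 0.73.

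Some chaperone and early response genes fell, while most measured members of both lists did not pass. For unfolded protein and heat shock responses, 20 genes were measured, of which 8 fell and 1 rose (median -0.14; 4 fell without _s_at, _x_at and _a_at probe sets). Dnajb9, a co-chaperone of the endoplasmic reticulum, was at -0.96, its partner Hspa5 (BiP) at -0.42 and Hsp90b1 at -0.54, and the mitochondrial Hspd1 at -0.63. Hspe1, the partner of Hspd1, was the rise, at 0.25. The other probe sets of Hspa5, at -0.19 and 0.01, and of Hsp90b1, at -0.32, were not called. Of 20 immediate early genes, 7 fell and 2 rose (median -0.11), and 1 rose when any homozygous array, heterozygous replicate 1 or 3 or wild-type replicate 1 was left out. Klf6 was at -1.03 with 3 of its other 4 probe sets also lower, Fos at -0.92, and Jun and Klf2 at -0.61 each. The second probe set of Jun, at 5.29 in both groups, was not called (adjusted p = 0.992).

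Of 23 measured genes in the interferon list, 7 fell and none rose (median -0.08). Ifi35, an interferon-induced gene by its name, is not in the list and rose by 0.73. Ifitm2, one of a family of membrane proteins that block virus entry, had values of 4.81, 4.95 and 4.92 on homozygous and 7.78, 7.78 and 7.60 on heterozygous arrays. It fell by 7.10-fold with no overlap (adjusted p = 1.68e-10). Its relatives Ifitm3 and Ifitm1 were at -1.79 and -0.91. Rsad2 (viperin) was at -1.72, with its other probe sets at -1.68 and -1.60, and B2m, the light chain of class I molecules, at -0.62. The other 16 genes of the list were not called. The falls stood beside those of the macrophage list, whose summed levels are given above, and that list's part in them was not tested.

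**Figure D3:**
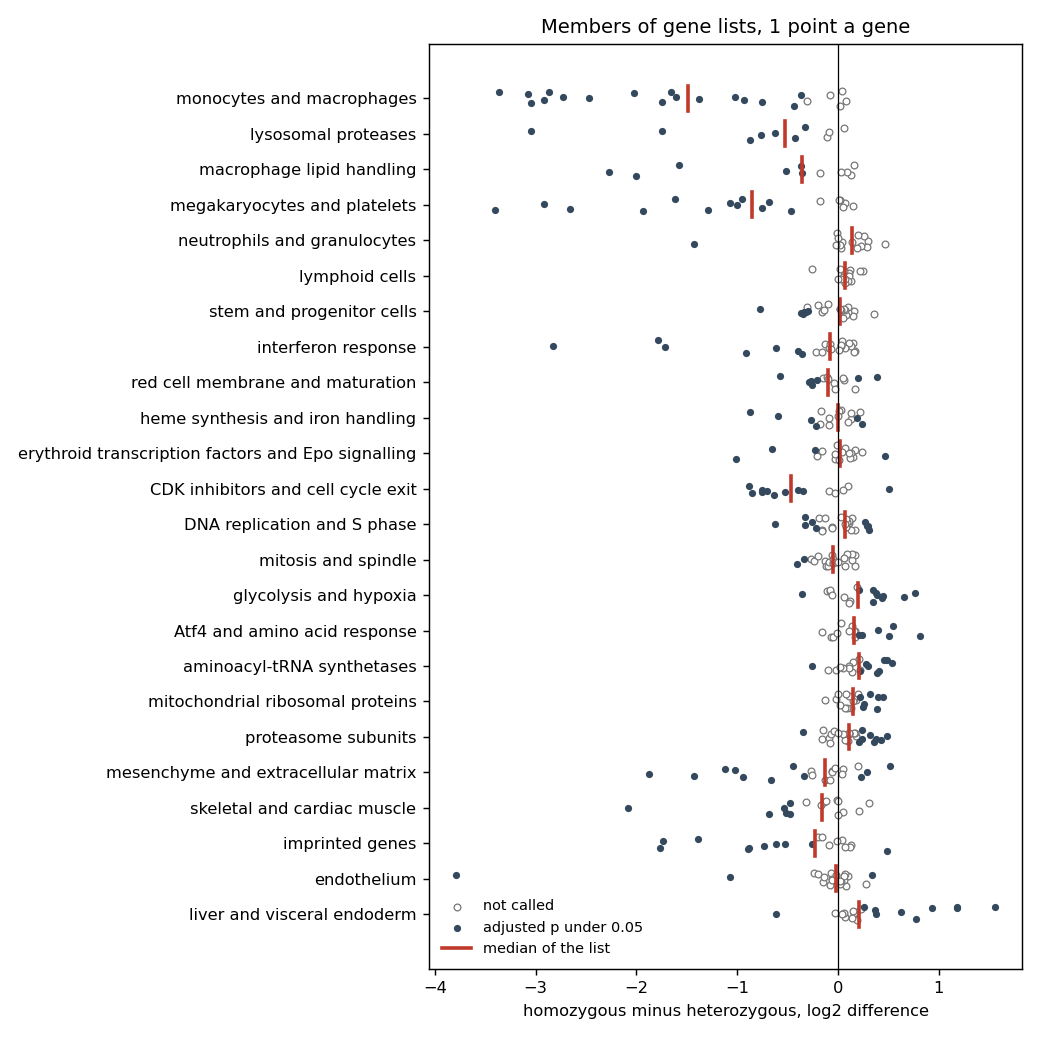
Log2 difference, homozygous minus heterozygous, of each measured member of 24 gene lists (points), filled where the adjusted p is under 0.05, with the median of each list as a red bar. The medians of macrophage and megakaryocyte genes, at -1.49 and -0.85, lie furthest below 0, and those of glycolysis genes, tRNA synthetases and liver and visceral endoderm genes lie at 0.20 to 0.21.

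The rises of at least 2-fold were all in genes of liver and visceral endoderm. Of 20 genes of these tissues, which secrete plasma proteins, 9 rose and 1 fell (median 0.21). Their summed level was 10.46 to 10.54 on homozygous, 9.69 to 9.73 on heterozygous and 9.89 to 9.91 on wild-type arrays, so the heterozygous arrays were the lowest.

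Afp, the fetal plasma protein, was at 9.04, 8.87 and 8.85 on homozygous, 7.41, 7.42 and 7.23 on heterozygous and 7.83 to 7.88 on wild-type arrays. It rose by 2.96-fold with no overlap (1.56 ± 0.07, SE, adjusted p = 8.36e-08), and 1 of its 4 other probe sets was not called, at 0.04. Apoa1, the main protein of high-density lipoprotein, was at 6.88, 7.00 and 6.88 against 5.75, 6.00 and 5.46, and rose by 2.27-fold (adjusted p = 1.76e-05). Rbp4, the retinol carrier, was at 5.83, 5.53 and 5.67 against 4.50, 4.60 and 4.37, and rose by 2.27-fold as well (adjusted p = 2.44e-06). For all 3 the wild-type mean lay closer to the heterozygous than to the homozygous mean.

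Apoa2, Apoc2, Ttr, Apoa4, Fgg and Alb rose by 0.93, 0.77, 0.62, 0.37, 0.37 and 0.26. Dlk1, a growth regulator of fetal liver and also imprinted, fell by 0.61 (a dimmer probe set gave 0.09 without a call). Krt18, a keratin of simple epithelia, was the 1 of 10 epithelial and placental genes that rose, at 0.58. Whether these RNAs came from blood cells or from other tissue in the sample was not tested.

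A further set of falls was in genes that were highest in heterozygous blood. Of 21 mesenchyme and matrix genes, 8 fell and 3 rose (median -0.12; 1 rose without heterozygous replicate 1 or 3). The summed level was 11.02 to 11.08 on homozygous, 11.16 to 11.18 on heterozygous and 11.15 to 11.20 on wild-type arrays, so the sum of the list separated homozygous arrays by little. Col3a1, a fibrillar collagen, was at 5.44, 5.09 and 5.35 on homozygous, 7.19, 6.98 and 7.32 on heterozygous and 6.19 to 6.27 on wild-type arrays. It fell by 3.66-fold with no overlap (adjusted p = 2.38e-07). Vim, the filament protein of mesenchyme and white cells, was at -1.43, Lum at -1.12 and Col1a2 at -1.02, while Fn1, fibronectin, rose by 0.52 (a dimmer probe set gave 0.10 without a call).

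Of 16 skeletal and cardiac muscle genes, 6 fell and none rose (median -0.15; 3 fell without variance moderation or without _s_at, _x_at and _a_at probe sets). Their summed level was 9.12 to 9.19 on heterozygous, against 8.50 to 8.63 on homozygous and 8.50 to 8.56 on wild-type arrays. Actc1, the actin of heart and embryonic muscle, was at 5.32, 5.37 and 5.40 on homozygous, 7.33, 7.50 and 7.50 on heterozygous and 4.85 to 5.03 on wild-type arrays. The heterozygous arrays stood alone, and the fall was 4.23-fold (adjusted p = 4.24e-09). Myog, the factor of muscle differentiation, was at -0.69, and the troponins Tnnc1 and Tnnt1 at -0.53 and -0.52. Of 18 neural genes, 3 fell and none rose, Tubb2b, Nnat and Crabp1 at -0.63, -0.53 and -0.42, each highest in heterozygous blood (1 fell under the same 2 settings). The summed level of the neural list was not highest there. It was 11.94 to 11.98 on homozygous, 11.89 to 11.94 on heterozygous and 11.85 to 11.87 on wild-type arrays. Of 21 endothelial genes, Lyve1 and Vwf fell and Flt1, a VEGF receptor, rose by 0.34, where 10.4% of all genes fell and 5.38% rose. The rise of Flt1 had no call at its 3 other probe sets (0.09 to 0.14). Its call was also lost without homozygous replicate 1 or 3, heterozygous replicate 3 or wild-type replicate 1 or 2. Cdh5, Pecam1 and Kdr, the defining markers of endothelium, did not pass, at -0.24, -0.20 and -0.15.

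Imprinted genes, which are expressed from the copy of 1 parent, fell in 9 of 18 and rose in 1 (median -0.23; 5 fell without _s_at, _x_at and _a_at probe sets). Mest was at 4.40, 4.80 and 4.68 on homozygous, 6.30, 6.38 and 6.49 on heterozygous and 4.95 to 5.18 on wild-type arrays, and fell by 3.40-fold (adjusted p = 4.50e-07). Peg3 was at -1.39, the growth factor Igf2 at -0.90 and the CDK inhibitor Cdkn1c at -0.88. Plagl1, a zinc finger gene, was at -1.74 by its brightest probe set, but its other probe sets gave 0.00 and 0.11 without a call. Phlda2 rose by 0.48. The summed level was 12.49 to 12.57 on homozygous, 12.69 to 12.72 on heterozygous and 12.73 to 12.75 on wild-type arrays. Mest, Plagl1, Igf2 and Cdkn1c were highest in heterozygous blood, as were some muscle, mesenchyme and neural markers. Peg3 was highest in wild-type blood, at 8.26 against 8.12 in heterozygous blood. The part of those markers in these falls was not tested.

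**Figure D4:**
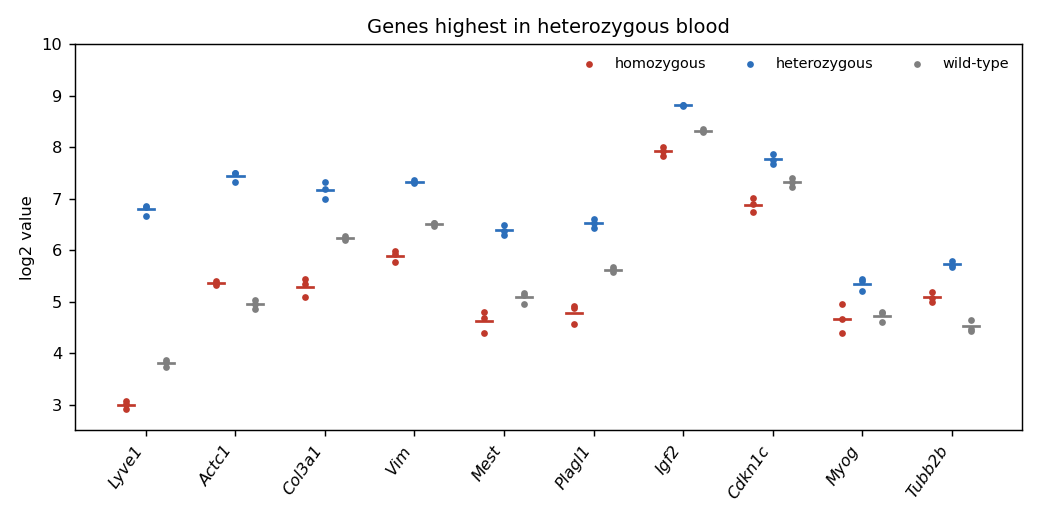
Log2 value on each array (points) and mean (bars) of 10 genes in homozygous, heterozygous and wild-type blood, 3 arrays each; the genes were chosen, after their values were seen, for being highest in heterozygous blood. Actc1 is at 7.44 on average in heterozygous blood, against 5.36 in homozygous and 4.95 in wild-type blood.

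Wild-type levels place the falls. Over the 131 genes that fell by at least 2-fold, of which 42 are in the lists, the median level was 4.96 in homozygous, 6.53 in heterozygous and 6.62 in wild-type blood. The wild-type mean was above the heterozygous mean in 79 of them, between the 2 mutant means in 51 and below the homozygous mean in 1. Mrc1, Csf1r, Fcgr3, Ctsc and Mpo are of the first kind, and Lyve1, Ppbp, Pf4, Gp1bb, Col3a1 and Mest of the second, while Actc1 is the 1 of the third. Because the heterozygous arrays enter each of these positions and the choice of genes, the counts are a description. Poly-A spike-ins differed between these genotypes too, at 11.26 on heterozygous and 10.38 on wild-type arrays.

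Other differences between the groups run alongside. Eif2s3y, on the Y chromosome, was at 5.65, 5.64 and 5.65 on homozygous, 4.73, 4.74 and 4.71 on heterozygous and 6.02 to 6.25 on wild-type arrays, a rise of 0.92 (adjusted p = 2.38e-06) that a dimmer probe set did not show, at 0.04. Kdm5d and Uty, also Y-linked, did not pass, at 0.15 and 0.02. Xist, made by the inactive X chromosome, rose by 0.26 at its brightest probe set and was at -0.56 and -0.36 at the others. The sex of the pooled embryos was not given, and its part in these differences was not tested. The 3' minus 5' difference of Actb, a sign of RNA length, was 1.20 in homozygous and 1.21 in heterozygous blood, and that of Gapdh was 0.04 in both.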

How the data were processed

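Per the labels' protocols, blood was pooled by genotype, total RNA was extracted with RNA-STAT and biotin-labelled by the one-cycle method for Affymetrix arrays. RMA, Partek 6.5 and Affymetrix Expression Console 1.0 are listed in the submitters' processing notes, with no role or order. The authors' deposited table holds 45101 probe sets by 9 arrays, from 1.49 to 14.56. The deposited values are read here as log2 values made by the authors with RMA, since RMA gives log2 values and the range fits. The scale itself is not stated. RMA equalizes the arrays, so a uniform difference in RNA content is removed. No detection calls or scanner files entered the work, so how far a value lies above background is unknown. Precision is limited by the 3 arrays of each genotype.

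The 64 control probe sets were left out of the tests. Platform annotation gave 1 symbol to 34945 of the other 45037, several to 932 and none to 9160, and no gene was named from several. A gene is read by its brightest probe set over all arrays. Genotype came from the titles. Under R 4.3.3, limma 3.58.1 fitted a model of genotype to all 9 arrays, and 2-sided p-values were adjusted by Benjamini-Hochberg over all 45037 probe sets. No 2 arrays were duplicates. Gene lists, 47 in all, are described by counts and medians, with no list test; summed levels are log2 of the summed linear values. Several lists share members.

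The comparison, the members and the lists were chosen with earlier results of these data known. Genes named are the 12 largest rises and falls among called genes whose arrays did not overlap (no predicted genes or clones), Cbfb, Runx1 and Myh11, and up to 4 called members of each list, or 2 where none was called. Other members, other probe sets and the motifs were named after their values were seen. The procedure was tested on simulated arrays. Figures were drawn with matplotlib 3.10.9.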

Additional observations from a re-analysis of the deposited data

Results flagged for a closer look

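Bacterial transcripts that are added in fixed amounts, and that no comparison above uses, differed between the genotypes. The poly-A spike-ins, which go into the RNA before labelling, averaged 11.96 ± 0.02 on homozygous and 11.26 ± 0.00 on heterozygous arrays over 24 probe sets (SD, n = 3 each), a difference of 0.70, with single probe sets at 0.36 to 1.06. The hybridization spike-ins, which are added after labelling, averaged 10.60 ± 0.07 and 10.32 ± 0.04 over 18 probe sets, a difference of 0.28, with single probe sets at 0.12 to 0.44. All homozygous arrays were above all heterozygous arrays in both, and the exact permutation test gave p = 0.1 for each, the smallest that 3 against 3 arrays allow. With the homozygous and heterozygous poly-A means set equal, every difference above would be lower by 0.70. The 12 largest rises named (0.73 to 1.56) exceed that, but Ifi35, at 0.73 ± 0.06 (SE), by less than its SE. Rises under 0.70 would become falls, among them Tpi1 at 0.66 by its brightest probe set, Ddit3 and Sars at 0.54 and Psmc4 at 0.48. On wild-type arrays the poly-A spike-ins averaged 10.38 ± 0.02 and the hybridization spike-ins 10.32 ± 0.01 (SD, n = 3). The poly-A spike-ins were thus lowest on wild-type arrays and highest on homozygous ones. The part of RNA amount in the differences, or in the placing of heterozygous against wild-type levels, was not tested.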

How the results depend on the processing

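Counts of rises moved most. With only the 6 arrays of the comparison, 1126 probe sets and 603 genes rose, with arrays centred on reference genes 1033 and 550, and with quantile normalization 1512 genes rose. Rises made up 44.3% of the probe sets called under quantile normalization, against 34.4%. Without _s_at, _x_at and _a_at probe sets, 3442 probe sets were called and 1024 rose. At a threshold of 0.01, 3057 were called and 650 rose, and at a minimum of 2-fold 247 were called, 12 higher and 235 lower. By the mean of a gene's probe sets, 72 genes fell by at least 2-fold. Causes were not tested, beyond the fewer arrays, probe sets and calls that these settings leave by construction. With 1 array left out, 3762 to 5166 probe sets were called (1040 to 1821 higher, 2722 to 3507 lower) and 2033 to 2700 genes (539 to 917 higher, 1492 to 1866 lower), with 3 to 4 rises and 119 to 142 falls of at least 2-fold. Of 146 called named genes, 109 kept their call and direction in all 20 settings run for single genes, and 35 lost the call in at least 1. Without _s_at, _x_at and _a_at probe sets, 4 changed sign: Plagl1 (0.00246), Mdm2 (0.0473), Xist (-0.56) and Ddx21 (-0.27). No scaling moved the median of all genes by over 0.04. Same-numbered arrays did not deviate together (r = -0.02 to 0.02). With 3 arrays of each genotype, this cannot exclude a pairing by number. With the replicate number as a block, 5199 probe sets were called, 1721 higher and 3478 lower. List counts not given above also moved by over 1.5 times. Without _s_at, _x_at and _a_at probe sets, falls numbered 3 in DNA replication and 1 each in core binding factor, mitosis and ribosome biogenesis, and rises 1 in cytosolic ribosomal proteins. With an intensity trend in the variance prior, 11 mitochondrial ribosomal, 8 cytosolic ribosomal, 13 proteasome and 5 heme genes rose. With arrays centred on reference genes, 1 gene each rose in DNA replication, cytosolic ribosomal proteins and mesenchyme, and 4 mitosis genes fell. With only the 6 arrays, 3 stem and progenitor genes fell and 2 replication genes rose.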

Other observations

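Most of the genes that fell by at least 2-fold are in none of the lists, and several of the larger ones, chosen here after their values were seen, are genes of the actin skeleton, of lipid mediators and of macrophage identity. Tmsb4x, the abundant peptide that holds actin monomers, was at a mean log2 value of 9.01 in homozygous, 11.41 in heterozygous and 11.45 in wild-type blood (difference -2.40 ± 0.08, SE, n = 3 each, adjusted p = 3.48e-09 by limma). Coro1a, an actin regulator of white cells, was at -1.87 and the adhesion adaptor Pxn at -1.72. Alox5ap, which serves leukotriene synthesis in white cells, was at -1.86, and Alox12, the lipoxygenase of platelets, at -1.75. A dimmer probe set of Pxn gave 0.26, and one of Alox12 -0.13, both without a call.

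Fcrls, an Fc receptor-like gene of macrophages, was at 5.30, 7.54 and 7.59 in homozygous, heterozygous and wild-type blood. Maf, a transcription factor of macrophages, was at 4.15, 5.96 and 6.25, and Dab2, an adaptor of endocytosis, at 5.34, 8.08 and 7.61. Of 5 other probe sets of Maf, 3 were not called (-0.13 to 0.33), and of 3 of Dab2, 2 were not (-0.13 and -0.10). In these genes the heterozygous level was closer to the wild-type than to the homozygous level. Gja1, a gap junction gene, was instead highest in heterozygous blood, at 3.09, 5.30 and 4.31.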
